A study of Mus musculus with 12 samples.

Results

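The BCL2 family, represented by 10 genes, was followed by RNA sequencing in NU1, a line of normal mouse urothelial cells that became immortal through passaging. The listed symbols Bcl2, Bcl2l1, Mcl1, Bax, Bak1, Bcl2l11, Bmf, Bbc3, Bid and Pmaip1 were all found in the count table, 10 of its 23337 gene symbols. All 10 passed the filter on low counts, as did 12406 symbols in all. The 12 libraries formed 4 groups of 3, with 1 library of every group from each of experiments 5, 7 and 9: proliferating cells with a control hairpin (shNT), proliferating cells with a hairpin against Stag2 (sh4), quiescent cells with shNT and quiescent cells with sh4. Every group is labelled wild type and carries a lentiviral hairpin. Quiescent cells, labelled day 7, had been grown to confluence and then kept with 1 µM of rosiglitazone, an agonist of PPAR gamma, and 0.5 µM of erlotinib, which inhibits the kinase of the EGF receptor. EGF itself is part of the growth medium. The effects of confluence, of either drug and of time in culture cannot be told apart in this design. The knockdown groups rest on 1 hairpin in 1 cell line.

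The BCL2 family sets whether a cell's mitochondria release cytochrome c and so start the caspase cascade. Its pro-survival proteins (BCL2, BCL-XL and MCL1) hold the pore-forming effectors BAX and BAK in check, and the BH3-only proteins, which share a short helix with the rest of the family, bind and neutralise the pro-survival proteins or activate the effectors directly. Growth factor signalling through ERK and AKT is known to lower the BH3-only proteins BIM and BMF at the level of the transcript or the protein, while p53 is known to raise transcription of PUMA, NOXA and BAX. STAG2, the target of the hairpin, belongs to cohesin, a protein ring that loops DNA and keeps sister chromatids together.

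Between 14524429 and 21987539 counts were obtained per library. Levels are given as CPM, read counts relative to the TMM-scaled library total, in the order of experiments 5, 7 and 9. In the check of the labels, Stag2 stood at 133 CPM ± 17.4 (SD, n = 3) in proliferating shNT and 27.6 ± 4.96 (SD, n = 3) in proliferating sh4 libraries, and at 121 ± 11.3 (SD, n = 3) and 12.1 ± 2.95 (SD, n = 3) in the quiescent groups. Of 20 urothelial markers, 17 passed the filter; keratins 7, 8, 18 and 19 were abundant, but Trp63 was at 0 in all 12 libraries, Upk3a had at most 1 count, and Krt5 and Krt14 had at most 115 and 189. Their summed level ran from 13150 to 19955 CPM outside quiescent sh4 cells and from 22365 to 24131 CPM in them. Fibroblast, smooth muscle and endothelial marker lists each summed to at most 2.27 CPM. The immune list summed to 15.6 to 61.9 CPM outside quiescent sh4 cells and to 110 to 170 CPM in them, and most of it was Csf1r. Cd68, the only other gene of the list to pass the filter, ran from 1.55 to 9.36 CPM (26 to 157 counts). The defining leukocyte markers Ptprc and Lyz2 had at most 9 and 2 counts. In bulk RNA, fewer cells with a transcript and less of it per cell cannot be told apart.

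The members differed widely in level. Per kilobase of exon, in proliferating shNT cells, Bax (94.4 CPM per kb) and Mcl1 (91.8) were highest, followed by Bcl2l1 (71.3), and their ranges over the 3 libraries overlapped from each to the next. Bak1 (32.6) and Pmaip1 (24.6) came next, apart from Bcl2l1 and overlapping each other. Bbc3 (14.6) and Bid (13.1) also overlapped each other, and the lowest levels were those of Bcl2 (6.18), Bcl2l11 (5.82) and Bmf (2.76). The length used takes in all annotated exons of a gene, used or not, and the order depends on it. In CPM alone, the mean of Bcl2 in these cells (56.6) was above those of Bid (46.6) and Bbc3 (31.1). In quiescent shNT cells Pmaip1 reached 65.1 CPM per kb, a range overlapping that of Bcl2l1 (70.2). Bcl2, with 3.70 CPM per kb there and 2.15 in quiescent sh4 cells, had the lowest mean of the 10 in both quiescent groups, overlapping Bmf in quiescent shNT and apart from it in quiescent sh4 cells. In quiescent sh4 cells Pmaip1 (78.1) stood above Bcl2l1 (59.1) with no overlap.

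**Figure D1:**
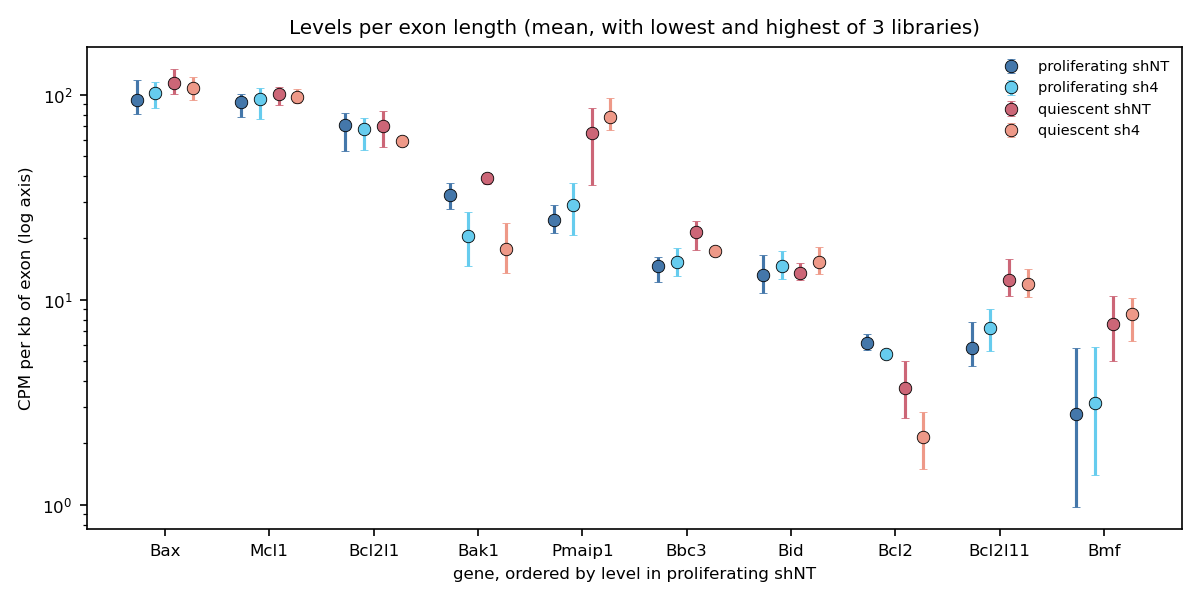
CPM per kilobase of exon on a log axis for the 10 BCL2 family genes, ordered by their level in proliferating shNT cells; points are means of 3 libraries and bars run from the lowest to the highest library. Bax, Mcl1 and Bcl2l1 stay near the top in every group, Pmaip1 is higher and Bcl2 lower in the quiescent groups, and Bak1 is lower in the sh4 groups.

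Comparing quiescent with proliferating control cells asked which members differ when the cells stop dividing. Transcripts of 3 BH3-only genes rose: Pmaip1 (2.65-fold), Bcl2l11 (2.14-fold) and Bbc3 (1.46-fold). No member fell at an adjusted p under 0.05 in the fit without a term for experiment; with experiment as a replicate block, Bmf was also called higher and Bcl2 lower, which made 5 of 10. Over all genes, 20% were called without the block (8.33% higher and 11.7% lower) and 35.3% with it (16.8% higher and 18.5% lower). The median log2 fold change was 0.27 over the 10 members and 0.0047 over all genes tested. Groups did not overlap in CPM for 3 higher members (Bcl2l11, Bbc3 and Pmaip1) and 1 lower (Bcl2), against 35.6% of all genes in either direction.

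**Figure D2:**
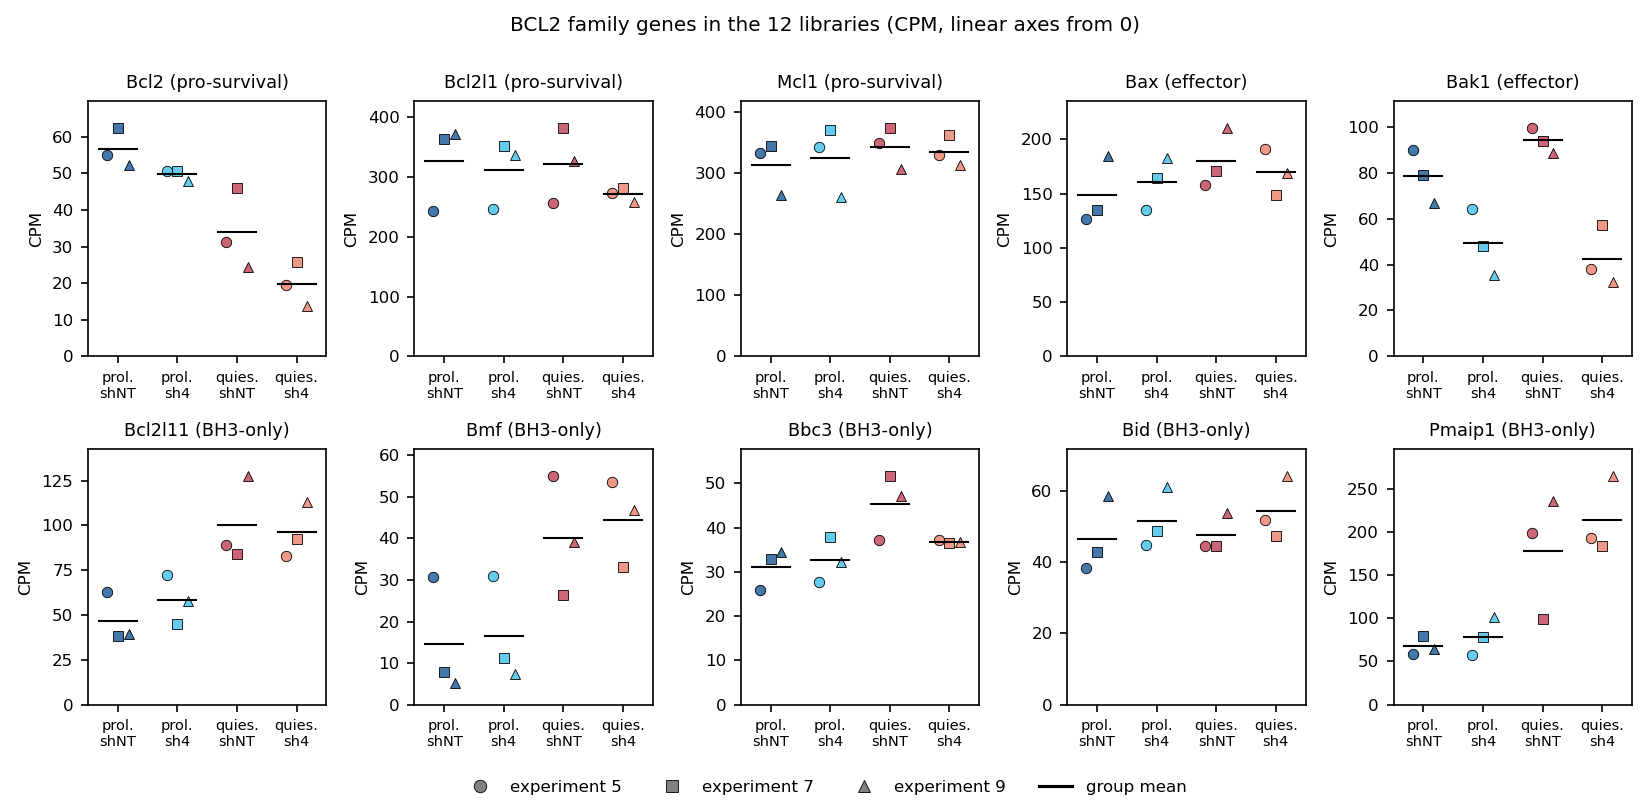
CPM of the 10 genes in each of the 12 libraries, on linear axes from 0, with circles, squares and triangles for experiments 5, 7 and 9 and a bar for the group mean. Bcl2l11, Bmf and Pmaip1 are higher and Bcl2 lower in the quiescent groups, and Bak1 is lower in each sh4 group than in its control, while Bcl2l1, Mcl1, Bax and Bid overlap between groups.

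Bcl2l11 and Bbc3, both called in this comparison, are also the members whose RefSeq promoter window (around a transcription start, build GRCm38.p6) holds the forkhead core TGTTTAC on either strand, which reads GTAAACA on the other. It was found in 2 of 16 member windows, which belong to 9 of the 10 members (Pmaip1 has none in the table), and in 1199 of all 32851 windows (3.65%). The windows are shown for the place of the core, in capitals: chr2:128125788-128126087 on the plus strand for Bcl2l11 and chr7:16310011-16310310 on the plus strand for Bbc3.
Bcl2l11 promoter: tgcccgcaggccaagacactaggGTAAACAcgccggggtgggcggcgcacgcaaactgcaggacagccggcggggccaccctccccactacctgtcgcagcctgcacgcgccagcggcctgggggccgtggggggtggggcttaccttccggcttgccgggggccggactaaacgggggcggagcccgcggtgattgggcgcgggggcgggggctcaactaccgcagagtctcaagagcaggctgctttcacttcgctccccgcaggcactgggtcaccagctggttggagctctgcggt
Bbc3 promoter: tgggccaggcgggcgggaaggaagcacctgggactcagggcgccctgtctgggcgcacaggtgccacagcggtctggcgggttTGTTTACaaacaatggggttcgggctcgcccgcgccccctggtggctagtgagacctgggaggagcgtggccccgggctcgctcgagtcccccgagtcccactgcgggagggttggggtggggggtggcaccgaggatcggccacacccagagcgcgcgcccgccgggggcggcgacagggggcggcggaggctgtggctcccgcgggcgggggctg
A match in these letters is a description and says nothing of binding. Both windows are rich in G and C (71.0% and 74.7%), against a median of 52.7% over all windows. The other window of Bcl2l11 and the other windows of Bbc3 in the table do not hold the core.

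Bcl2l11 (chr2:128126038-128162547, GRCm38, plus strand) encodes BIM, a BH3-only protein that binds all the main pro-survival proteins. Its level was 62.7, 38.0 and 39.5 CPM in proliferating shNT and 89.3, 83.9 and 127.5 in quiescent shNT libraries. Every quiescent library was above every proliferating one. This was a log2 fold change of 1.10 (SE 0.24, adjusted p = 0.0098 by edgeR), with differences of 0.51, 1.14 and 1.69 within experiments 5, 7 and 9. The call held in each of 21 alternative fits. In sh4 cells the levels were 72.1, 45.1 and 57.7 in proliferating and 82.7, 92.3 and 113.4 CPM in quiescent libraries, again apart. There the log2 fold change was 0.72 (SE 0.24) with edgeR adjusted p = 0.0609, and 0.74 with adjusted p = 0.0204 with the replicate block. Without proliferating shNT or sh4 of experiment 5, edgeR's adjusted p was 0.0340 or 0.0423, with only the compared libraries in the fit it was 0.0449, and DESeq2 gave 0.0248. The proliferating libraries of experiment 5 were the highest of their groups.

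Bbc3 (chr7:16308393-16318205, GRCm38, plus strand) encodes PUMA, a BH3-only target of p53 that is also under FOXO control. Proliferating shNT libraries had 25.9, 33.0 and 34.5 CPM and quiescent shNT libraries 37.2, 51.6 and 47.2. The groups were apart, with the lowest quiescent value close to the highest proliferating one. Quiescence gave a log2 fold change of 0.54 (SE 0.16, adjusted p = 0.0364 by edgeR), and with the block edgeR's adjusted p was 0.0068. The call without the block was lost (adjusted p 0.0506 to 0.118) on leaving out proliferating shNT of experiment 5 or 7, quiescent shNT of experiment 7 or 9, or quiescent sh4 of experiment 7 or 9. It was also lost with no filter on low counts (0.0504) and with only the compared libraries in the fit (0.0858). In sh4 cells the levels, 27.8, 37.9 and 32.1 CPM in proliferating and 37.2, 36.4 and 36.7 in quiescent libraries, overlapped and did not pass the test (log2 fold change 0.17, SE 0.16, edgeR adjusted p = 0.488). The difference between these responses was -0.37 on the log2 scale (SE 0.23, unadjusted p = 0.133, edgeR adjusted p = 0.9997).

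Bmf (chr2:118528757-118549687, GRCm38, minus strand) encodes a BH3-only protein that binds the dynein light chain. Over the 12 libraries its log2 CPM had an SD of 1.16, the largest of the 10 members. Its level was 30.6, 7.79 and 5.11 CPM in proliferating shNT and 55.0, 26.4 and 39.2 in quiescent shNT libraries. Proliferating experiment 5 lay above quiescent experiment 7, so the groups overlapped, although the quiescent library was higher within each experiment (by 0.84, 1.74 and 2.91 on the log2 scale). In the test, the difference was 1.47 on the log2 scale (SE 0.65, edgeR adjusted p = 0.133) without the block and 1.75 (SE 0.39, edgeR adjusted p = 0.0063) with it. Leaving out proliferating shNT of experiment 5 gave 2.64 (edgeR adjusted p = 0.0103). In sh4 cells Bmf stood at 31.0, 11.3 and 7.35 CPM in proliferating and 53.6, 33.1 and 46.9 in quiescent libraries, which were apart by a small margin. Their log2 fold change was 1.43 (edgeR adjusted p = 0.149) without and 1.68 (edgeR adjusted p = 0.0078) with the block, and 2.26 (edgeR adjusted p = 0.0459) without proliferating sh4 of experiment 5.

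Bcl2 (chr1:106538178-106714274, GRCm38, minus strand), the founding pro-survival gene of the family, was lower in the quiescent groups, whereas Bcl2l11 and Bmf were higher within each experiment. Proliferating shNT libraries had 55.0, 62.4 and 52.3 CPM and quiescent shNT libraries 31.2, 46.1 and 24.3. All quiescent libraries were lower, with experiment 7 the least so. On the log2 scale the difference was -0.74 (SE 0.24, edgeR adjusted p = 0.0524), and -0.78 (SE 0.16, edgeR adjusted p = 0.0047) with the block. Without the block it also passed on leaving out quiescent shNT of experiment 7 (edgeR adjusted p = 0.0157) or quiescent sh4 of experiment 7 or 9 (0.0396 and 0.0370), with median-of-ratios size factors (0.0491), with a mean count of at least 50 (0.0438) and by DESeq2 (0.0196). In sh4 cells Bcl2 stood at 50.8, 50.6 and 47.9 CPM in proliferating and 19.6, 25.8 and 13.7 in quiescent libraries. It fell there by 1.34 on the log2 scale (2.52-fold lower, SE 0.25, edgeR adjusted p = 0.0042), and by 1.38 (edgeR adjusted p = 0.000199) with the block.

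In sh4 cells, 2 members were called between the states without the block, Pmaip1 higher and Bcl2 lower. With the block Bcl2l11 and Bmf were also called higher, which made 4 of 10. Among all genes 18.4% were called (7.59% higher, 10.8% lower), and 33% with the block (15.9% higher, 17.2% lower). The members' median log2 fold change was 0.08, against 0.0045 for all genes. Groups did not overlap for Bcl2l11, Bmf and Pmaip1 (higher) and Bcl2 (lower), against 37.2% of all genes. Fitted without the 4 libraries of experiment 5, Bcl2 (-1.32, edgeR adjusted p = 0.0620) and Pmaip1 (1.32, edgeR adjusted p = 0.0727) did not pass, while Bcl2l11 (1.00, edgeR adjusted p = 0.0351) and Bmf (2.10, edgeR adjusted p = 0.0143) did.

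**Figure D3:**
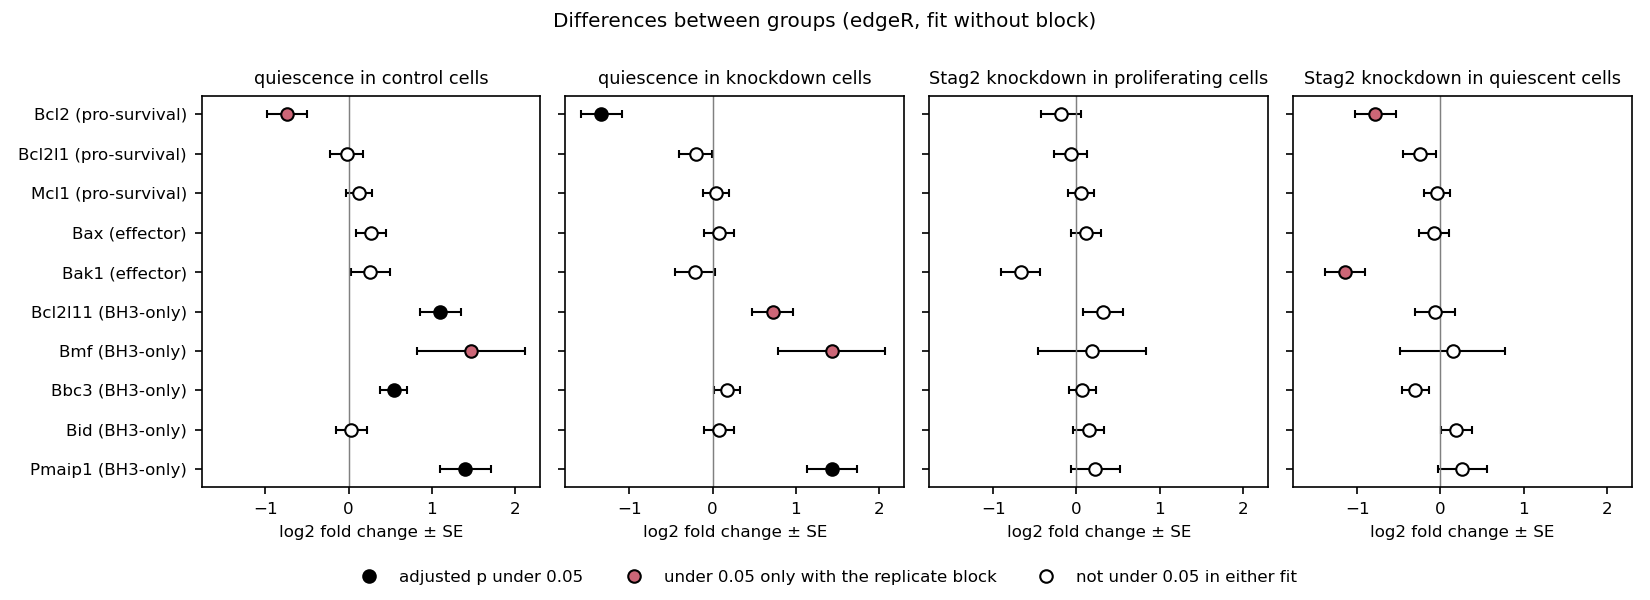
Log2 fold changes of the 10 genes with their standard errors (edgeR, without the replicate block) in the 4 comparisons; filled black points passed an adjusted p of 0.05, red points passed only with the block and open points in neither fit. Pmaip1 passed in both quiescence panels, Bak1 and Bcl2 passed only with the block for knockdown in quiescent cells, and no member passed for knockdown in proliferating cells.

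Pmaip1 encodes NOXA, a BH3-only protein that binds mainly MCL1 (chr18:66458533-66465565, GRCm38, plus strand). Proliferating shNT libraries had 58.0, 78.8 and 64.8 CPM and quiescent shNT libraries 198.9, 99.5 and 235.1. The groups were apart, and quiescent experiment 7 was well below the other 2 quiescent libraries. Pmaip1 thus rose by 1.40 on the log2 scale (SE 0.30, edgeR adjusted p = 0.0085), with differences of 1.78, 0.34 and 1.86 within experiments. In sh4 cells the levels were 56.8, 78.2 and 101.2 CPM in proliferating and 192.4, 183.5 and 264.3 in quiescent libraries, with a wide gap between the groups. There it rose by 1.44 (SE 0.30, edgeR adjusted p = 0.0082). Without the 4 libraries of experiment 5 the control comparison gave 1.22 (edgeR adjusted p = 0.0792).

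The other 5 members did not pass the test between the states, with or without the block. Bcl2l1, which encodes BCL-XL, ranged from 244 to 382 CPM over all libraries, and its log2 fold change with quiescence in control cells was -0.02 (SE 0.20). Mcl1, a pro-survival gene whose protein turns over quickly, ranged from 261 to 373 CPM (0.13, SE 0.16). Bax, the effector that moves from the cytosol to mitochondria, ranged from 127 to 210 CPM (0.27, SE 0.18), and Bid, the BH3-only protein cut by caspase-8, from 38.4 to 64.2 CPM (0.03, SE 0.19). The exons of Bid share 628 bases with Bcl2l13 on the opposite strand, which had 949 to 1582 counts a library against 645 to 1145 for Bid. Those of Bax share 192 bases with Gm45808 on the same strand, and those of Bcl2 share 558 with D630008O14Rik on the opposite strand. Neither Gm45808 nor D630008O14Rik is in the count table. Bak1, the effector that resides on mitochondria, had a log2 fold change of 0.26 (SE 0.23) in control and -0.21 (SE 0.24) in sh4 cells. 

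Ratios of counts within a library do not depend on scaling between libraries, and they are compared here only from library to library. Bcl2l11 reads per Mcl1 read ran from 0.111 to 0.188 in proliferating shNT and from 0.225 to 0.417 in quiescent shNT libraries, and from 0.122 to 0.221 and 0.252 to 0.363 in the matching sh4 groups. The quiescent ranges lay above the proliferating ones for either hairpin. Bax reads per Bcl2 read ran from 2.16 to 3.54 in proliferating shNT, 3.70 to 8.65 in quiescent shNT, 2.66 to 3.82 in proliferating sh4 and 5.75 to 12.4 in quiescent sh4 libraries. Quiescent libraries were higher again, while the 2 quiescent groups overlapped, although sh4 was above shNT within each experiment. Bax reads per Bcl2l1 read overlapped between the states for either hairpin, although the quiescent library was higher within each experiment. They ran from 0.369 to 0.519 in proliferating and 0.446 to 0.642 in quiescent shNT libraries, and from 0.466 to 0.548 and 0.525 to 0.702 in the matching sh4 groups. Bmf per Mcl1 overlapped between the states in shNT libraries (0.0193 to 0.0921 and 0.0707 to 0.157), as did Bcl2l11 per Bcl2l1 (0.104 to 0.257 and 0.219 to 0.389). Within each experiment the quiescent shNT library had the higher value of both ratios. In sh4 libraries both ratios were apart, at 0.0281 to 0.0905 and 0.0913 to 0.163 for Bmf per Mcl1 and 0.128 to 0.292 and 0.303 to 0.440 for Bcl2l11 per Bcl2l1, by small margins.

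**Figure D4:**
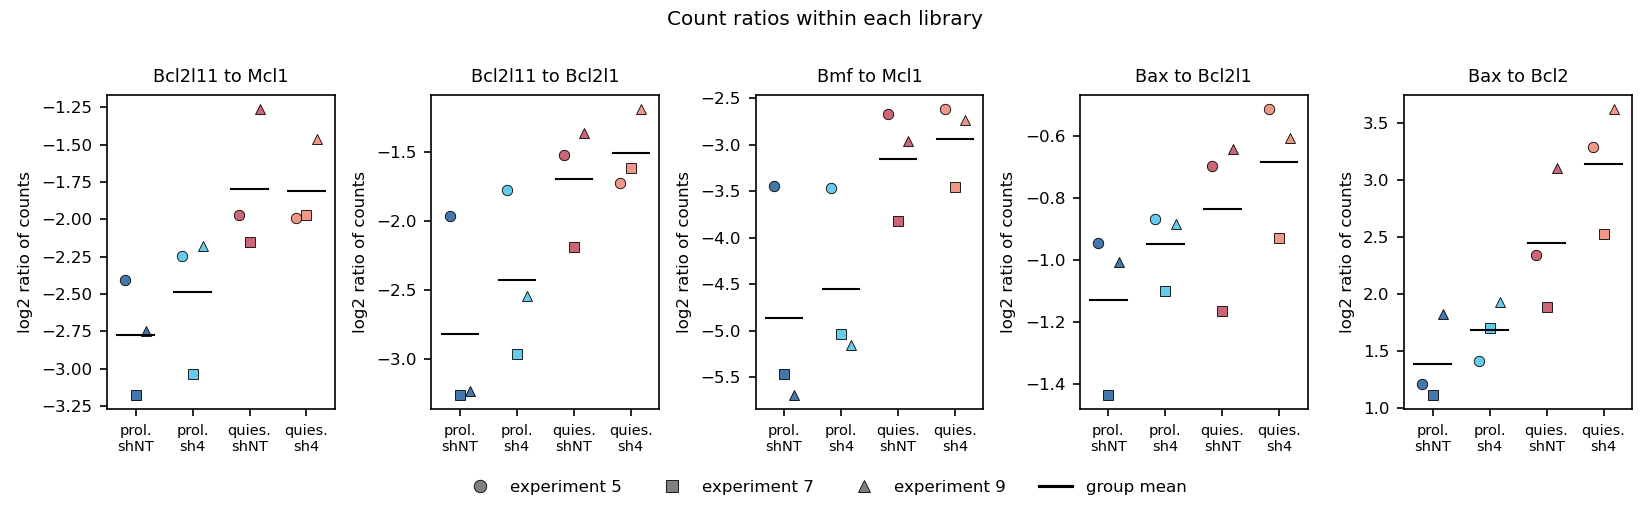
Log2 of the count of one family member over another in the same library, for 5 pairs, with symbols for experiments 5, 7 and 9 and a bar for the group mean. Bcl2l11 to Mcl1 and Bax to Bcl2 do not overlap between proliferating and quiescent libraries of the same hairpin.

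The knockdown was compared with its control within each state, using quiescent and proliferating libraries that also enter the comparisons above. In proliferating cells no member passed edgeR's test in either fit. Of all genes 3 passed in each fit (0.0242%), and at an unadjusted p under 0.05 there were 1 member and 228 genes without the block, and 1 member and 645 genes with it. The DESeq2 test also called no member. Groups did not overlap for 2 members, Bcl2 and Bak1, both lower, against 5.31% of all genes. In quiescent cells no member passed without the block, where 0.435% of genes did (54 genes) and 2 members and 1489 genes had an unadjusted p under 0.05. With the block 2 members, Bak1 and Bcl2, were lower, against 3.55% of genes, and DESeq2 without the block called 1 member. Only Bak1 did not overlap, against 19.1% of all genes. The median log2 fold change of the 10 members was 0.09 in proliferating and -0.07 in quiescent cells, against -0.0022 and 0.016 for all genes.

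Bak1 (chr17:27019810-27029009, GRCm38, minus strand) encodes BAK, the effector that sits on the mitochondrial outer membrane and forms pores there. It had the lowest ratio to control of the members in both states. In proliferating cells its level was 89.7, 78.8 and 66.7 CPM with shNT and 64.3, 48.2 and 35.3 with sh4. In quiescent cells it was 99.4, 94.0 and 88.7 CPM with shNT and 38.0, 57.1 and 32.5 with sh4. Every sh4 library was below every shNT library of its state. With knockdown the log2 fold change of Bak1 was -0.67 in proliferating cells (SE 0.24, unadjusted p = 0.0156, edgeR adjusted p = 0.9998) and -0.69 with the block (edgeR adjusted p = 0.848). In quiescent cells it was -1.14 (2.21-fold lower, SE 0.24, edgeR adjusted p = 0.0703), and -1.17 (SE 0.18, edgeR adjusted p = 0.0105) with the block. DESeq2 gave -1.15 (adjusted p = 0.000669) in quiescent cells, and edgeR's test without the block passed on leaving out quiescent sh4 of experiment 7 (-1.41, adjusted p = 0.0353) or proliferating sh4 of experiment 9 (-1.16, adjusted p = 0.0389). Sh4 libraries held 38.2%, 60.8% and 36.6% of the control level in quiescent experiments 5, 7 and 9, and 71.7%, 61.1% and 52.9% in proliferating ones. The difference between the states was -0.47 (SE 0.33, unadjusted p = 0.181). The exons of Bak1 share 437 and 177 bases with 2 entries of Ggnbp1 on the opposite strand, a gene with 34 to 94 counts a library, against at least 555 for Bak1. The urothelial marker sum and the immune marker sum, mostly Csf1r, were also highest in quiescent sh4 libraries, where neither overlapped quiescent shNT, and their part in this result was not tested.

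Hairpins can lower other transcripts through a short match of their seed in the 3' UTR, and the sequence of sh4 is not given in the sources used here. The 3' UTRs (GENCODE M21) of 228 genes called lower in quiescent sh4 cells with the block were therefore searched for heptamers. The members and Stag2 were left out of the 228. Only heptamers present in at least 10% of the 228 were kept. They were ranked by their share there relative to that in all 10881 tested genes with a 3' UTR. The top 3 were ATGACGC (12.28% against 1.6%), TGACGCA (11.84% against 1.87%) and TGACGCT (11.4% against 2.91%), which share the letters TGACGC and overlap. Among the members only Bak1 holds TGACGCA, and none holds ATGACGC or TGACGCT. The site is shown because it is the only match among the 10 genes. It lies at chr17:27020688-27020714 (GRCm38, minus strand), 227 bases after the stop codon in a 3' UTR of 1121 bases, with the heptamer in capitals.
Bak1 3' UTR site: aggcactgacTGACGCActgggggggg
The heptamers were chosen on the quiescent comparison, so the values there are a description. Among the 202 genes other than members with TGACGCA, 71.29% had a log2 fold change below 0 in proliferating cells, with a median of -0.10, against 50.97% and -0.0044 over all genes. In quiescent cells the figures were 78.71% and -0.24, against 48.17% and 0.011. The 202 include the 27 genes with TGACGCA among the 228, and without these the 175 others had 66.86% and -0.07 in proliferating and 75.43% and -0.21 in quiescent cells. The proliferating libraries share the hairpin and the experiments with the quiescent ones, so their values are a description too. Whether this site or the loss of Stag2 has a part in the lower Bak1 level was not tested, and with 1 hairpin they cannot be told apart.

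**Figure D5:**
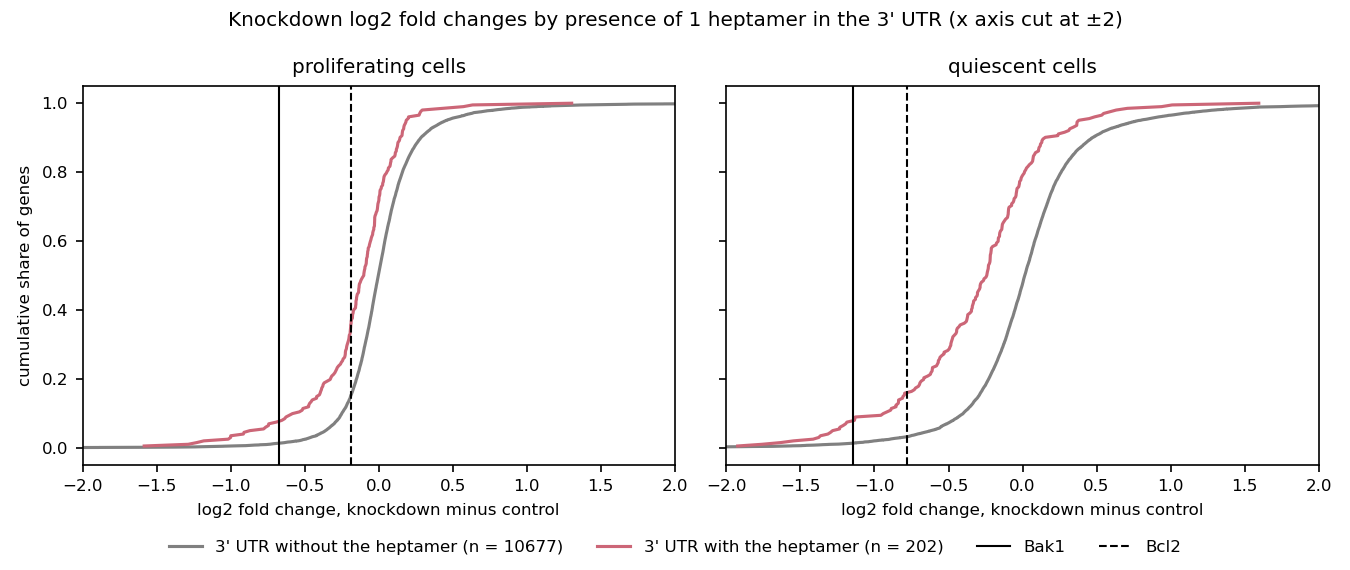
Cumulative share of genes by log2 fold change of knockdown minus control in proliferating and quiescent cells, for 202 genes with TGACGCA in the 3' UTR and for the genes without it; vertical lines mark Bak1 and Bcl2. The curve of genes with the heptamer lies to the left in both states, with medians of -0.10 and -0.24.

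Bcl2 was the other member called with the block for knockdown in quiescent cells, where shNT libraries had 31.2, 46.1 and 24.3 CPM and sh4 libraries 19.6, 25.8 and 13.7. The groups overlapped, because shNT of experiment 9 was below sh4 of experiment 7, but sh4 was lower in each experiment, at 62.8%, 56.0% and 56.4% of control. The fitted difference was -0.78 on the log2 scale (SE 0.25, edgeR adjusted p = 0.217) without the block and -0.78 (SE 0.17, edgeR adjusted p = 0.0336) with it. In proliferating cells sh4 libraries held 92.3%, 81.1% and 91.5% of control (log2 fold change -0.19, SE 0.24, edgeR adjusted p = 0.9998). The difference between the states was -0.60 (SE 0.34, unadjusted p = 0.109), and -0.60 (unadjusted p = 0.0248, edgeR adjusted p = 0.974) with the block. The 3' UTR of Bcl2 holds none of the 3 heptamers.

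The interaction of knockdown and state was not called for any member by edgeR, nor for any gene (0% without and 0% with the block). At an unadjusted p under 0.05 there were 0 members and 219 genes without the block and 1 member (Bcl2) and 590 genes with it. Stag2 itself had a log2 fold change with knockdown of -2.26 in proliferating and -3.32 in quiescent cells. State and depth of knockdown thus cannot be told apart in these differences between the states. Of the remaining members, Bcl2l11 had a log2 fold change with knockdown of 0.32 (SE 0.24) in proliferating and -0.06 (SE 0.24) in quiescent cells. It was higher with sh4 in all 3 proliferating experiments, as were Bid and Bmf, but Bmf by only 0.018 on the log2 scale in experiment 5. Pmaip1 had 0.23 (SE 0.30) and 0.26 (SE 0.30), Bbc3 0.07 (SE 0.16) and -0.30 (SE 0.16), and Bid 0.15 (SE 0.19) and 0.19 (SE 0.19). Bid was higher with sh4 in all 3 quiescent experiments as well, by a mean of 0.19 (SD 0.090). The share of all genes with the same sign in all 3 experiments was not counted. Bmf, with 0.19 (SE 0.64) and 0.15 (SE 0.63), had the widest error. Bcl2l1, Mcl1 and Bax lay between -0.25 and 0.11 in either state. None of these passed in either fit, which does not show that they did not differ.

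Among family genes outside the 10, Bcl2l2, which encodes the pro-survival BCL-W, ranged from 57.5 to 91.5 CPM, the effector relative Bok from 72.8 to 221 and the BH3-only gene Bad from 22.2 to 30.5, with no call in any comparison. Bik, a BH3-only gene whose protein sits on the endoplasmic reticulum, rose with quiescence in control cells (log2 fold change 2.37, SE 0.66, edgeR adjusted p = 0.028) from low counts, 17 to 279 a library. That call held in 8 of 12 fits with 1 library left out, and the value ran from 1.57 to 2.85 over the alternatives. In sh4 cells Bik had 1.89 (SE 0.64, edgeR adjusted p = 0.0632), and 1.76 (edgeR adjusted p = 0.0277) with the block. Of 8 tested divergent relatives none was called without the block, and with it Bnip3 rose for either hairpin (0.65 and 0.58) and Bcl2l15 fell in control cells (-1.34). Bcl2a1a, Bcl2a1b, Bcl2a1c, Bcl2a1d, Bcl2l10 and Hrk had at most 5 counts in any library and did not pass the filter.

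Of genes around the family, 23 outputs of the EGFR-MAPK pathway were followed because erlotinib was part of the quiescence treatment. In control cells 12 fell and 1 rose without the block (17 and 1 with it), and the list's median log2 fold change was -1.12. The largest falls were those of the AP-1 subunit Fosl1 (-3.53), the ETS factors Etv4 (-3.31) and Etv5 (-2.40) and the ERK phosphatase Dusp6 (-2.48), and Spry1 rose by 0.69. In sh4 cells 11 fell and 1 rose (15 and 2 with the block), with a median of -0.90. Of 25 p53 targets other than the members, 5 rose and 2 fell in control cells (median 0.16), among them the cell cycle inhibitor Cdkn1a (1.20), Btg2 (0.82), the DNA repair gene Xpc (0.67) and Plk2 (0.50). With 1 library left out, the calls of Cdkn1a and Xpc held in all 12 fits, that of Btg2 in 8 and that of Plk2 in 3. Those that fell were the mitotic gene Ckap2 (-2.57) and Epha2 (-0.86), which is also in the EGFR-MAPK list. In sh4 cells 4 rose and 3 fell, with a median of -0.014. Those that fell there were Ckap2 (-2.42), Epha2 (-0.65) and Mdm2 (-0.57). The call of Mdm2 held in 4 of 12 fits with 1 library left out. With the block 1 more rose for each hairpin, Gdf15 (1.17 in control and 0.85 in sh4 cells). These counts stand beside the shares of all genes called higher and lower given above, and the lists were chosen with earlier results known.

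Over all genes, 8.33% were called higher and 11.7% lower with quiescence in control cells, and 7.59% and 10.8% in sh4 cells. With the block these shares were 16.8% and 18.5% in control and 15.9% and 17.2% in sh4 cells. Downstream of the mitochondria, 2 of 16 genes rose with quiescence in control cells, the inhibitor-of-apoptosis genes Birc3 (1.09) and Birc2 (0.58). In sh4 cells Birc2 rose (0.53) and Apaf1 (-0.50), which encodes the apoptosome scaffold, fell. With the block Htra2 also fell in control cells (-0.46), and Birc3 (0.89) and Diablo (0.44) rose in sh4 cells. Of 9 death receptor genes, Cflar (-0.72), which encodes the caspase-8 inhibitor FLIP, and Casp2 (-0.61) fell in control cells and none passed in sh4 cells without the block (3 fell with it). Of 11 genes acting on the turnover of MCL1 and BH3-only proteins, 1 rose in either hairpin, Bag3 (0.41 in each), and 4 rose with the block. Of 10 tested genes for factors known to regulate BH3-only genes, Jun rose (1.50 and 1.35 in control and sh4 cells), and E2f1 (-2.07 and -1.27) and Runx1 (-1.18 and -0.81) fell. Trp53 fell in sh4 cells (-0.60) and had -0.52 in control cells (edgeR adjusted p = 0.0505, and 0.0124 with the block). With knockdown none of these lists had a called gene in proliferating cells. In quiescent cells the EGFR ligand Areg fell (-2.03, edgeR adjusted p = 0.036), and with the block E2f1 was also called, higher with sh4 (0.99, edgeR adjusted p = 0.0206). The call of Areg held in 5 of 12 fits with 1 library left out and in 13 of all 21 alternatives.

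For each member the gene of the closest profile was found by the root mean square difference of log2 CPM over the 12 libraries, after subtracting each gene's mean, among 10300 genes. It was Hjurp for Bcl2 (0.16), Ipo4 for Bcl2l1 (0.09), Cog3 for Mcl1 (0.06), Atp6v1f for Bax (0.09), Kirrel for Bak1 (0.17), Txndc16 for Bcl2l11 (0.14), Cldn23 for Bmf (0.33), Eif4a2 for Bbc3 (0.12), Plekhj1 for Bid (0.08) and Itgb6 for Pmaip1 (0.26). No member's closest gene was another member, which says little of the family because other members were few among the genes compared. The closest pair within the family was Bax and Bid (0.16). The median over all compared genes was 0.71 for Bcl2, 0.63 for Bak1 and 1.18 for Bmf. For Mcl1, Bax, Bcl2l1, Bid and Bbc3, which varied less, it was smaller, from 0.32 (Mcl1) to 0.38 (Bbc3).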

How the data were processed

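The authors deposited raw counts per gene symbol for 12 libraries of polyadenylated RNA made with a stranded kit, per the labels' protocols. The submitters' processing notes name Bowtie, TopHat, HTSeq, DESeq2 and mm10, with no versions or roles; how strand was used in counting and which annotation served are not given in the sources used here, so reads of overlapping genes cannot be assigned. The table has 5762 symbols with no count. The analysis used edgeR 4.0.16 (R 4.3.3): filterByExpr with a minimum count of 10, TMM scaling, 4 group means fitted to 12 libraries by glmQLFit, glmQLFTest for 5 comparisons, and Benjamini-Hochberg adjustment over 12406 genes with a threshold of 0.05. The script was tested on simulated data. CPM used TMM-scaled totals, and exon lengths were those of all exons of a gene in GENCODE M21 merged.

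The labels' batch coincides with the experiment number, which therefore pairs the samples: deviations from group means correlated with a mean r of 0.526 across genes in 18 same-number pairs (0.225 to 0.789) and -0.259 in 36 others. The negative value largely follows from subtracting group means, after which deviations cancel within a group, so it adds no separate evidence of pairing. A fit with experiment as a replicate block is given where it changes the call of a member or of a named gene. The alternatives were that block, median-of-ratios size factors, DESeq2 1.42.0, no filter, a mean count of at least 50, only the libraries compared, and each library left out; leaving out experiment 5 and the block with median-of-ratios factors were chosen after seeing the data. No replicate pair was identical (chi-square per degree of freedom 36.6 to 99.7). The labels name experiments but not separate cultures, so p-values measure the spread between these libraries, and counting error covers sampling only.

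Named genes are the 10 members, Stag2, listed pathway genes past the threshold without the block (at most 4 each way per list, by size) and the gene most like each member among those whose mean log2 CPM reached 2 (prior count 2). Listed genes named as called only with the block were chosen after their values were seen. The members and lists were chosen with earlier results of these data known. No RefSeq protein table was used here, so no protein sequence is shown. The results of 1 gene of the list downstream of the mitochondria are not reported here, and the genes named as lower in that list leave it out.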

Additional observations from a re-analysis of the deposited data

How the results depend on the processing

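Without the replicate block, the number of members called was 3 for quiescence in control cells, 2 for quiescence in knockdown cells and 0 for knockdown in quiescent cells. With the block it was 5, 4 and 2, and the same 5, 4 and 2 by DESeq2 with the block and by edgeR with the block and median-of-ratios size factors. DESeq2 without the block called 4, 3 and 1, with Bcl2 added in control cells, Bcl2l11 in knockdown cells and Bak1 for the knockdown. Leaving out each library in turn gave 0 to 1 there, with 1 without quiescent sh4 of experiment 7 or proliferating sh4 of experiment 9, and 2 to 4 for quiescence in knockdown cells, with 4 without proliferating sh4 of experiment 5. The block changed no call of a member other than Bcl2, Bmf, Bcl2l11 and Bak1 as given above. The cause of these shifts was not tested. Listed pathway genes were checked only in comparisons where they were called without the block, a choice that favours a kept direction. There they kept it in all alternatives run, with 999 alternative values still past the threshold and 177 no longer past it.

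Of the members' alternative values, 38 reversed sign, all in comparisons where the gene was not called. For knockdown in proliferating cells, the log2 fold change with 1 library left out ran from -0.24 to 0.073 for Bcl2l1, -0.060 to 0.18 for Mcl1, -0.0014 to 0.30 for Bax, -0.64 to 1.36 for Bmf, -0.055 to 0.17 for Bbc3, -0.0039 to 0.34 for Bid and -0.00055 to 0.42 for Pmaip1. For knockdown in quiescent cells it ran from -0.11 to 0.024 for Mcl1, -0.18 to 0.046 for Bax, -0.20 to 0.15 for Bcl2l11, -0.082 to 0.44 for Bmf and -0.029 to 0.52 for Pmaip1. For quiescence in control cells it ran from -0.19 to 0.13 for Bcl2l1 and -0.090 to 0.23 for Bid, and in knockdown cells from -0.094 to 0.15 for Mcl1, -0.031 to 0.18 for Bax, -0.47 to 0.026 for Bak1 and -0.055 to 0.22 for Bid. Without experiment 5, Bid in control cells was -0.044, and in knockdown cells Bax was -0.13 and Bak1 0.10. Where an arm was left with 2 libraries the spread was pooled over groups. With 3 libraries a group, changes of the size seen for Bid, Bax and Mcl1 did not pass the test in either fit, which does not show that they did not differ.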
